A study of Danio rerio with 16 samples.

Results

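Transcripts of 87 spliceosome and hnRNP genes were followed in zebrafish embryos that lack functional rad21a. The set took every gene whose only symbol in the array annotation begins with snrp, snrnp, sf3, srsf, sfrs, prpf, u2af, hnrnp, hnrp, syncrip or ptbp, or with lsm and a number. These genes were measured by 114 probe sets, of 15502 tested, and stood among 8793 genes with a single symbol. The rule used names and no measured value, but the members were chosen with earlier results of these data known. By role the set held 16 proteins of the small nuclear ribonucleoproteins (snRNPs), 11 factors of the U2 snRNP and the 3′ splice site (sf3 and u2af genes), 11 Prp factors, 11 Lsm proteins, 13 SR proteins and 25 hnRNP, syncrip and Ptbp proteins. The rule goes by name, and some members have duties outside splicing: lsm1 acts in cytoplasmic mRNA decay, lsm11 in histone mRNA processing, and the lsm12 and lsm14 genes are not core splicing factors.

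Embryos homozygous for the nz171 allele of rad21, the gene for a cohesin subunit, were compared with wild type embryos at 24 and 48 hours post fertilisation (hpf). Each genotype and time had 4 pools of 50 dechorionated whole embryos, and each pool was hybridised to an Affymetrix zebrafish array of its own, giving 16 arrays in 4 groups. The mutation is carried by every cell of the mutant embryos, and a pool averages all tissues of its embryos. In such bulk samples fewer cells of a type and less RNA per cell cannot be told apart. Array medians ran from 45.9 to 48.4 in linear intensity.

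Splicing removes introns from pre-mRNA. The snRNPs pair small nuclear RNAs with a ring of Sm proteins: U1 marks the start of the intron, U2 marks the branch site with help from the SF3 complexes and U2af, and the U4/U6.U5 particle brings in Prp8, the core of the catalytic machine, and its partners. SR proteins mostly promote the use of exons, while hnRNPs coat the nascent transcript and often repress exons. Ptbp proteins are hnRNPs known in mammals for a switch in the developing brain, where Ptbp1 of progenitors gives way to Ptbp2 of young neurons. Sm proteins and Prp factors are in demand wherever cells transcribe and divide fast.

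Levels are given as log2 of the normalized intensity, and a gene with several probe sets is given by its brightest. Differences are log2 changes with the standard error (SE) of a limma model over all 16 arrays, with 4 arrays per group. A gene is called higher or lower where its p, adjusted by Benjamini-Hochberg over all 15502 probe sets, is under 0.05. All adjusted p-values of single genes come from this limma fit. Probe sets for 5 foreign sequences that embryos lack read between 2.77 and 7.22 with a median of 4.66. The reading of 7.22 came from pd2EGFP, and the other foreign sequences read at most 5.89. The members snrpd2 and lsm14b, 2 in all, had a mean below the median of 4.66. The other members lay above it, and 63 of the 87 had a mean level above 8.

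The mutated gene was checked in every array. rad21a read 6.58, 6.72, 7.06 and 6.83 in mutants at 24 hpf, against 10.09, 10.48, 10.55 and 10.40 in wild types, a change of -3.58 ± 0.17. At 48 hpf it read 6.57, 6.72, 6.05 and 5.92 in mutants, against 10.48, 10.26, 10.06 and 10.15 in wild types, a change of -3.92 ± 0.17. All 8 mutant arrays lay below all 8 wild type arrays. Wild type replicate 1 of 24 hpf stood apart from its group for 8 named members, and values without it are given for the falls it touches most. Leaving it out changed the call of 8 members in mutant against wild type at 24 hpf (3 lost, 5 gained) and of 9 members in wild types with time (2 lost, 7 gained).

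Few splicing transcripts were called different between mutants and wild types. At 24 hpf, 5 of the 87 members fell in mutants (hnrnpl, prpf38b, hnrnpdl, prpf4 and srsf3b) and 1 rose (ptbp1a), which is 5.75% lower, against 5.08% of all 8793 genes called lower, and 1 gene higher, against 3.61%. At 48 hpf, 8 fell (hnrnpl, prpf38b, srsf3b, hnrnpa0a, hnrnpr, hnrnpul1, snrpc and snrpd1) and none rose by limma. This is 9.2% lower, against 8.18% of all genes lower and 9.66% higher. The shares called lower were thus near those of all genes at both times, and the shares called higher were below them. At an unadjusted p under 0.05 by limma, 26 members passed at 24 hpf, 6 of them higher. Of all 8793 genes 2098 passed, 955 of them higher. At 48 hpf 15 members passed, 1 of them higher, against 2734 of all genes, 1543 of them higher. The changes were small: the median over members was -0.13 at 24 hpf, against 0.00 over all genes, and -0.10 at 48 hpf, against 0.03. Below 0 lay 63 members at 24 hpf and 59 at 48 hpf, with 49 below 0 at both. Over all 8793 genes the counts were 4494, 3984 and 2763.

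hnrnpl, which in mammals binds CA-rich RNA and regulates exon choice, showed the largest decrease among the called members. At 24 hpf it read 9.14, 9.14, 9.15 and 8.95 in mutants, against 9.40, 9.64, 10.11 and 9.81 in wild types, a change of -0.64 ± 0.15 (adjusted p = 0.0172, 1.56-fold lower). All 4 mutant arrays lay below all 4 wild type arrays. At 48 hpf it read 8.74, 8.72, 8.79 and 9.05 in mutants, against 9.71, 9.68, 9.03 and 9.49 in wild types, a change of -0.65 ± 0.15 (adjusted p = 0.00758, 1.57-fold lower). Here the groups touched, since the highest mutant array read 9.05 and the lowest wild type array 9.03. The call at 24 hpf was lost without mutant replicate 4 or wild type replicate 3 of that time (adjusted p up to 0.0649). The gene next to hnrnpl in the RefSeq order of genes is another member, srsf7a, which had changes of -0.13 at both times with no call. A second hnRNP L gene, hnrnpl2, had changes of -0.06 and -0.09 at 24 and 48 hpf, also with no call.

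prpf38b, which in yeast and humans belongs to the family of the Prp38 factor needed to activate the spliceosome, fell at both times. It read 7.29, 7.61, 7.52 and 7.38 in mutants at 24 hpf, against 7.67, 8.20, 8.04 and 8.11 in wild types (-0.56 ± 0.13, adjusted p = 0.017). At 48 hpf it read 7.17, 7.04, 6.72 and 6.82 in mutants, against 7.50, 7.72, 7.27 and 7.39 in wild types (-0.53 ± 0.13, adjusted p = 0.0109). The genotypes did not overlap at either time. The call at 24 hpf was lost without mutant replicate 1 or 4 or wild type replicate 2 or 4 (adjusted p up to 0.0603). prpf38a, the other Prp38 gene, had a change of 0.01 at each time (adjusted p = 0.989 and 0.968).

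srsf3b, an SR protein gene whose mammalian relative links splicing to mRNA export, was the third member that fell at both times. It read 8.82, 9.12, 9.09 and 8.96 in mutants at 24 hpf, against 9.56, 9.13, 9.34 and 9.54 in wild types (-0.39 ± 0.10, adjusted p = 0.0258). At 48 hpf it read 8.54, 8.54, 8.68 and 8.66 in mutants, against 8.99, 9.08, 9.02 and 8.89 in wild types (-0.39 ± 0.10, adjusted p = 0.0146). Every mutant array lay below every wild type array of its time, at 24 hpf narrowly. The call at 24 hpf was lost when any of 5 of the 8 arrays of that time was left out, mutant replicates 1 and 4 and wild type replicates 1, 3 and 4. It was also lost with only the compared groups fitted and with 3 doubted arrays, named below, left out (adjusted p up to 0.0844 over all alternatives). The other 12 SR protein genes had no call in either genotype comparison, with changes between -0.34 and 0.21 at 24 hpf and between -0.32 and 0.36 at 48 hpf.

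The other calls were made at a single time. At 24 hpf hnrnpdl, an hnRNP D relative, read 9.51, 9.43, 9.73 and 9.60 in mutants, against 9.83, 10.10, 9.99 and 10.18 in wild types, with no overlap (-0.46 ± 0.11, adjusted p = 0.0158). Its change at 48 hpf was -0.28 (adjusted p = 0.0985). Its neighbour on the chromosome, hnrnpd, had changes of 0.04 and -0.04 with no call. prpf4, a protein of the U4/U6 particle, read 8.32, 8.19, 8.14 and 7.90 in mutants at 24 hpf, against 8.73, 8.56, 8.49 and 8.45 in wild types, again with no overlap (-0.42 ± 0.11, adjusted p = 0.0338), and its change at 48 hpf was -0.27 (adjusted p = 0.121). The call of hnrnpdl was lost without wild type replicate 4 (adjusted p = 0.055). That of prpf4 was lost without any of mutant replicates 2 to 4 or wild type replicates 1 to 3. It was also lost with a trended and robust prior in limma and without the 3 doubted arrays (adjusted p up to 0.119 over all alternatives).

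ptbp1a was the only member called higher in mutants, and this call was fragile. It read 9.24, 9.37, 9.47 and 9.50 in mutants at 24 hpf, against 8.99, 8.81, 8.81 and 9.20 in wild types (0.44 ± 0.12, adjusted p = 0.0394, 1.36-fold higher). The groups did not overlap. Its other probe sets had changes of 0.13 and 0.21 with no call, and at 48 hpf the change of the brightest was 0.26 (adjusted p = 0.184). The call at 24 hpf was lost in 9 of 27 alternatives, with adjusted p up to 0.118: without mutant replicates 2, 3 or 4 or wild type replicates 1, 2 or 3 of 24 hpf, without mutant replicate 3 of 48 hpf, with the replicate block and with the mean of all probe sets.

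The other 5 calls at 48 hpf were snRNP and hnRNP genes. hnrnpul1, an RNA-binding relative of hnRNP U, read 7.84, 7.41, 7.57 and 7.46 in mutants, against 8.10, 8.01, 7.94 and 8.17 in wild types (-0.49 ± 0.10, adjusted p = 0.00346, 1.4-fold lower). This was the smallest adjusted p of any member in a genotype comparison, and the groups did not overlap. At 24 hpf hnrnpul1 read 8.36, 8.59, 8.28 and 8.36 in mutants, against 8.59, 8.47, 8.44 and 8.62 in wild types, with overlapping groups and a change of -0.13 (adjusted p = 0.557). The difference between these changes was -0.36, with an adjusted p of 0.307, so the larger decrease at 48 hpf was not distinguished from that at 24 hpf.

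snrpc and snrpd1 were the snRNP genes called at 48 hpf. snrpc, the U1 protein that helps recognise the start of the intron, read 9.03, 8.85, 9.14 and 8.66 in mutants, against 9.24, 9.40, 9.35 and 9.20 in wild types (-0.37 ± 0.10, adjusted p = 0.0149). snrpd1, a member of the Sm ring, read 10.21, 9.99, 9.90 and 9.68 in mutants, against 10.32, 10.25, 10.43 and 10.42 in wild types (-0.41 ± 0.11, adjusted p = 0.0187). Neither gene had overlapping genotypes at 48 hpf. At 24 hpf their changes were -0.13 and -0.14, with adjusted p of 0.535 and 0.583. snrpc lost its call without wild type replicate 2 of 48 hpf, without the 3 doubted arrays and with only the compared groups fitted (adjusted p up to 0.077 over its alternatives). snrpd1 lost its call without mutant replicate 4 of 48 hpf and without the 3 doubted arrays (up to 0.0876). The other measured Sm genes (snrpb, snrpd2, snrpd3, snrpe, snrpf and snrpg) had changes between -0.18 and 0.20 at 48 hpf and between -0.27 and -0.08 at 24 hpf, with no call. snrpd3l, a second gene with the name of the D3 protein, had -0.47 at 24 hpf (adjusted p = 0.0535) and -0.38 at 48 hpf (adjusted p = 0.0823).

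hnrnpr and hnrnpa0a were called at 48 hpf with more doubt in the arrays. hnrnpr, an hnRNP best known from neurons, read 6.92, 7.01, 7.43 and 6.84 in mutants, against 8.04, 7.94, 7.40 and 7.38 in wild types (-0.64 ± 0.19, adjusted p = 0.0291), with 1 mutant array above 2 wild type arrays. hnrnpa0a, which binds AU-rich RNA in mammals, read 9.87, 10.04, 10.15 and 10.08 in mutants, against 10.55, 10.76, 10.44 and 10.33 in wild types (-0.49 ± 0.15, adjusted p = 0.0334). Its groups did not overlap, but its other probe sets went opposite ways: 1 was called lower at -0.84 (adjusted p = 0.00104) and 1 higher at 0.48 (adjusted p = 0.0494). The direction for hnrnpa0a therefore depends on the probe set. Both genes lost the call without any of mutant replicates 1, 2 or 4 or wild type replicates 1 or 2 of 48 hpf. For hnrnpa0a the call was also lost with quantile normalization and with the mean of all probe sets. Over all alternatives the adjusted p reached 0.101 for hnrnpr and 0.177 for hnrnpa0a. At 24 hpf neither was called with all arrays (-0.46 for hnrnpr and -0.47 for hnrnpa0a), and both were without wild type replicate 1 (-0.66, adjusted p = 0.0193, and -0.63, adjusted p = 0.00495).

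**Figure D1:**
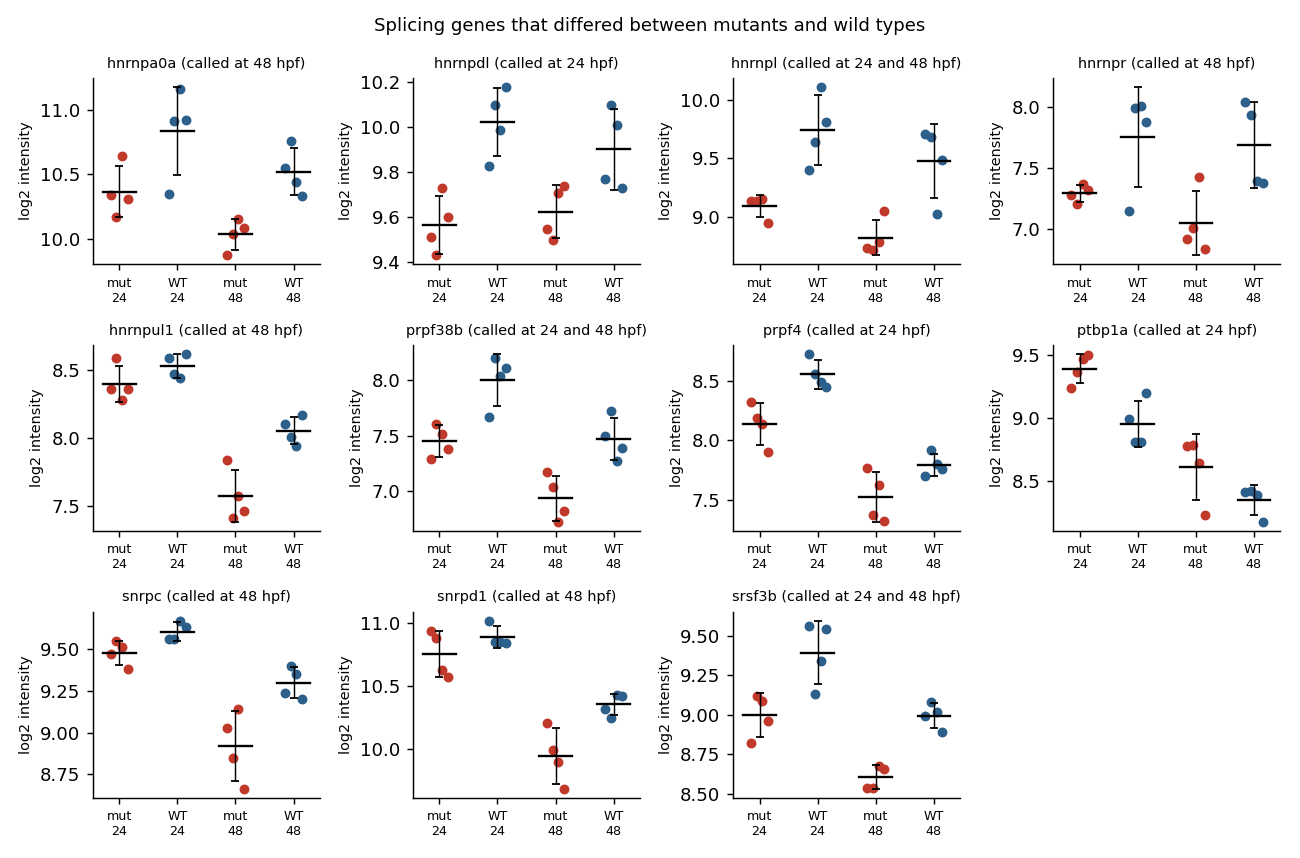
Log2 intensity of the 11 members called between genotypes at 24 or 48 hpf, with mutants (mut) left of wild types (WT) at each time, 1 point per array, and bars for the mean and SD of 4 arrays. The mutant points lie below the wild type points of the called time for 10 members, with slight overlap for hnrnpl and hnrnpr at 48 hpf, and above them for ptbp1a.

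**Figure D2:**
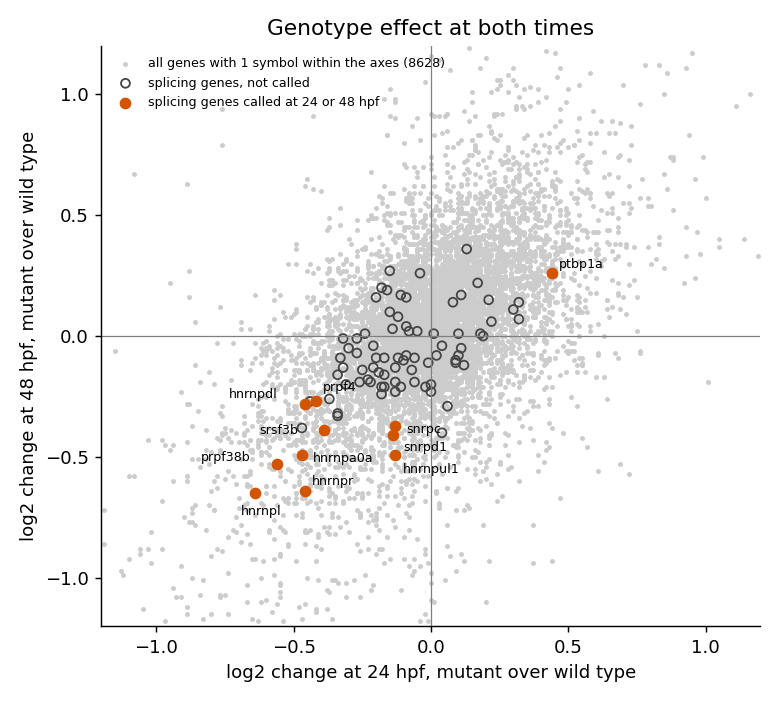
Log2 change, mutant over wild type, at 24 hpf (horizontal) against 48 hpf (vertical) for each gene, with the splicing members ringed or, where called at either time, filled and named; 165 of the 8793 genes lie outside the axes. Of the 11 filled points, 10 lie below 0 at both times and ptbp1a lies above 0 at both.

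The members that moved most at 24 hpf also tended to do so at 48 hpf. Across the 87 members Pearson's r between the changes at the times was 0.604 and Spearman's rho 0.535, against 0.579 and 0.517 across all genes. These are descriptions across genes, which are not independent replicates; the comparisons share no array. The difference between the mutant effects at 48 and 24 hpf was called for 0 of the 87 members by limma, against 1.81% of all genes. An unadjusted p under 0.05 was found for 3 members, against 1194 of all 8793 genes.

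Groups that did not overlap were counted without the model. At 24 hpf 14 members (16.1%) had all mutant arrays below all wild type arrays, against 8.95% of all genes, and 3 had all mutant arrays above, against 7.7%. At 48 hpf 10 members (11.5%) had all mutant arrays below, against 8.76%, and 1 had all above, against 11.4%. The median change, the number of members below 0 and these counts lay on the lower side of the background, while the shares called lower were near it. Of the RNA measures, that of actin moved with genotype beside these counts, and that of GAPDH overlapped between genotypes. The level of the actin 3′ control probe set minus its 5′ probe set averaged 3.69 in mutants (range 3.57 to 3.78) and 3.07 in wild types (3.03 to 3.15) at 24 hpf, and 3.56 in mutants (3.39 to 4.08) and 2.62 in wild types (2.41 to 2.81) at 48 hpf. The same difference for GAPDH averaged 0.54 in mutants (0.43 to 0.60) and 0.41 in wild types (0.29 to 0.59) at 24 hpf. At 48 hpf it averaged 0.61 in mutants (0.58 to 0.65) and 0.59 in wild types (0.55 to 0.63). Markers of dividing cells also moved with genotype: of 10 measured, 4 fell in mutants at 24 hpf and 3 at 48 hpf, with log2 summed levels of 13.07 to 13.36 in mutants and 13.71 to 13.78 in wild types at 24 hpf, and 12.18 to 13.01 in mutants and 12.93 to 13.18 in wild types at 48 hpf. None of the 10 lay below the median of the foreign sequences in any group. Neural progenitor markers fell in 3 of 8 cases at 24 hpf and 5 of 8 at 48 hpf, with log2 sums of 10.95 to 11.31 in mutants and 11.61 to 12.08 in wild types at 48 hpf. At 48 hpf 5 of 7 red blood cell markers fell (median -1.11; sums of 13.72 to 14.34 in mutants and 14.52 to 14.71 in wild types), as did 3 of 3 lens markers (median -1.80; 10.36 to 10.86 in mutants and 12.35 to 12.70 in wild types). Of 11 muscle markers 0 were called at either time (medians -0.55 and -0.39). Of 9 neuron markers, 1 rose and 1 fell at 24 hpf, and 1 rose and 2 fell at 48 hpf. Of 5 epidermis markers, 1 fell at 24 hpf, and 1 rose and 2 fell at 48 hpf. The part of these in the splicing results was not tested.

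Many more members were called between 24 and 48 hpf than between genotypes. In mutants 47 of the 87 members fell and none rose by limma, which is 54%, against 15.4% of all genes called lower and 12.6% higher. In wild types 50 fell and none rose, which is 57.5%, against 21.7% of all genes lower and 14.4% higher. In this fit no member was higher in either genotype even at an unadjusted p under 0.05. Of all 8793 genes 1560 were in mutants and 1585 in wild types. Under 2 alternatives, cyclic loess and array weights, lsm12a was called higher in wild types. The median change of the members was -0.40 in mutants, against -0.02 over all genes, and -0.39 in wild types, against -0.06. In wild types the members' changes ran from -0.88 to 0.23, so that the largest was a 1.84-fold decrease. By arrays alone, 50 members (57.5%) in mutants had all 48 hpf arrays below all 24 hpf arrays, against 15.5% of all genes, and 0 had all above, against 13.4%. In wild types the counts were 47 members (54%), against 22%, and 1 member, against 14.2%. The actin 3′ minus 5′ difference also moved with time in wild types, from 3.03 to 3.15 at 24 hpf to 2.41 to 2.81 at 48 hpf. Its times overlapped in mutants, as did those of GAPDH in both genotypes. The mean for GAPDH was 0.54 at 24 hpf and 0.61 at 48 hpf in mutants, and 0.41 and 0.59 in wild types. The part of RNA quality in these counts was not tested.

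Bright genes are called more often, and most members are bright. Among the 63 members with a mean level above 8, 43 fell in mutants (68.3%), against 24.5% of the 1888 genes above that level, and 42 fell in wild types (66.7%), against 31.9%. Above that cut the members' share called lower was thus higher than that of all genes. Levels above the cut were not matched between them. Of the 57 members that fell in at least 1 genotype, 40 fell in both, which is 85.1% of those that fell in mutants and 80% of those that fell in wild types. A further 7 were called in mutants only and 10 in wild types only, and 30 were called in neither. Over all 8793 genes, 958 (10.9%) were called lower in both genotypes, of 1351 called lower in mutants and 1906 in wild types. Among the members the share called lower in both was 46%. No member passed the test of the difference between genotypes itself, the interaction.

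The falls were most frequent among the snRNP proteins in mutants and the Prp factors in wild types, and least frequent among the Lsm proteins in both. Of 16 snRNP genes, 13 fell in mutants and 12 in wild types, with median changes of -0.53 and -0.52. Of 11 Prp genes, 7 fell in mutants and 10 in wild types (medians -0.40 and -0.57), and of 11 U2 and 3′ splice site genes, 7 fell in mutants and 6 in wild types (medians -0.40 and -0.34). Of 13 SR genes, 6 fell in mutants and 7 in wild types (medians -0.41 and -0.40), and of 25 hnRNP genes, 12 fell in mutants and 13 in wild types (medians -0.33 and -0.32). Of 11 Lsm genes 2 fell in each genotype (18.2%, medians -0.25 in mutants and -0.21 in wild types). Of all genes 15.4% were called lower in mutants and 21.7% in wild types, so the Lsm genes lay near that share. Some Lsm genes are dim: lsm1, lsm11, lsm14aa and lsm14b had mean levels of at most 5.36. The roles were counted side by side, and differences between them were not tested.

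**Figure D3:**
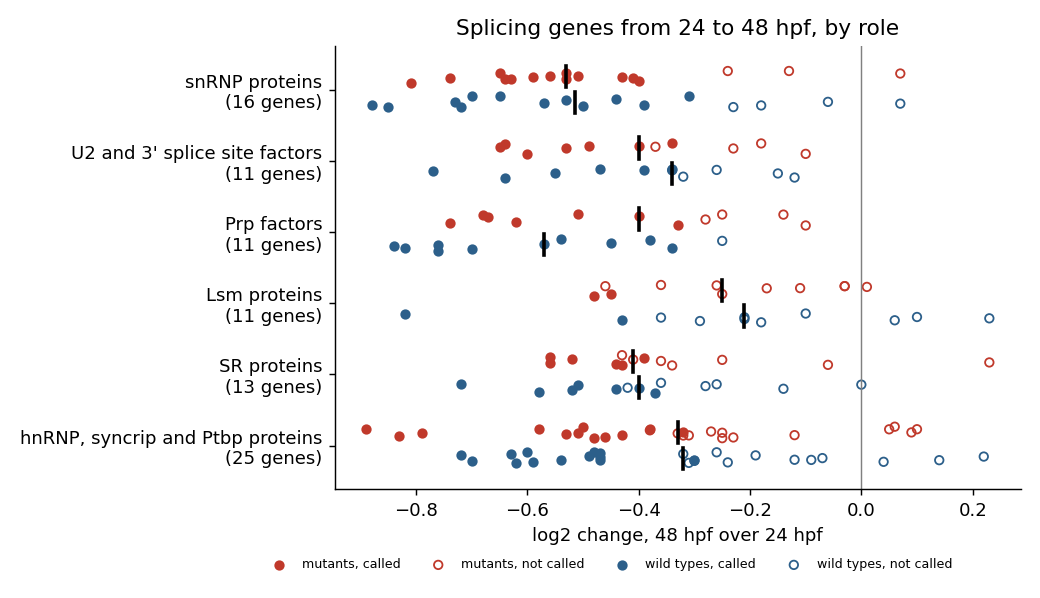
Log2 change, 48 over 24 hpf, of each of the 87 members in mutants and in wild types, grouped by role, with filled points for called members and black ticks for the median of each role. Most points lie below 0 in both genotypes, with role medians between -0.57 and -0.21.

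Most genes of the Sm ring fell. snrpg, an Sm protein, read 8.41, 8.29, 8.30 and 8.52 at 48 hpf in mutants, against 9.05, 9.13, 9.0 and 8.69 at 24 hpf (-0.59, adjusted p = 0.00143). In wild types it read 8.30, 8.29, 8.50 and 8.49 at 48 hpf, against 9.54, 9.14, 9.11 and 9.16 at 24 hpf (-0.85, adjusted p = 3.8e-05). No array of 48 hpf reached an array of 24 hpf in either genotype. Without wild type replicate 1 of 24 hpf, the highest array, the change in wild types was -0.75.

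snrpd3, another Sm protein, had the largest decrease of any member in wild types with all arrays. It read 8.53, 8.51, 8.44 and 8.29 at 48 hpf in mutants, against 9.20, 9.13, 8.83 and 8.64 at 24 hpf (-0.51, adjusted p = 0.0181). Wild types read 8.19, 8.16, 8.25 and 8.39 at 48 hpf, against 9.61, 8.98, 8.92 and 9.0 at 24 hpf (-0.88, adjusted p = 0.000242), and without the array at 9.61 the change was -0.72 (adjusted p = 0.000401), a smaller decrease than that of prpf19 (-0.89) in the same fit. The times did not overlap in either genotype. The change in mutants lost its call when mutant replicate 1 or 2 of 24 hpf or mutant replicate 4 of 48 hpf was left out. It was also lost under cyclic loess, and the adjusted p was at most 0.0656 over all alternatives.

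Of the other Sm genes, snrpb fell by 0.53 in mutants and 0.57 in wild types, snrpd1 by 0.81 and 0.53, snrpe by 0.65 and 0.70 and snrpf by 0.64 and 0.73, in the same order of genotypes, on the log2 scale. Their adjusted p-values lay between 6.95e-05 and 0.00458. The exception was snrpd2, with 0.07 in mutants and -0.06 in wild types, whose mean level of 3.94 lay below the median of the foreign sequences. Its probe set thus read no higher than background. Thus 6 of the 7 Sm genes fell in both genotypes. The U1 protein genes snrpa, snrpc and snrnp70 also fell in both, snrpa by 0.74 in mutants and 0.39 in wild types. In wild types snrpa lost its call without replicate 1 of 24 hpf (-0.34, adjusted p = 0.0526) and under cyclic loess (adjusted p = 0.131). There snrpc lost its call in 5 of 27 alternatives (adjusted p up to 0.216), cyclic loess and leaving out replicate 3 or 4 of 24 hpf or replicate 1 or 4 of 48 hpf.

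Factors of the U4/U6.U5 particle and of the activated spliceosome fell with them. prpf8, the largest and most conserved spliceosomal protein, read 9.56, 9.56, 9.50 and 9.31 at 48 hpf in mutants, against 9.95, 10.33, 10.28 and 10.08 at 24 hpf (-0.68, adjusted p = 0.000252). Wild types read 9.66, 9.72, 9.33 and 9.59 at 48 hpf, against 10.25, 10.45, 10.27 and 10.36 at 24 hpf (-0.76, adjusted p = 5.83e-05). The times did not overlap in either genotype. Both other probe sets of prpf8 were called lower in wild types, and 1 of them in mutants.

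prpf19, the ubiquitin ligase at the centre of the Prp19 complex, read 9.77, 9.65, 9.82 and 9.24 at 48 hpf in mutants, against 10.43, 10.46, 10.42 and 10.14 at 24 hpf (-0.74, adjusted p = 0.000424). In wild types it read 9.58, 9.84, 9.76 and 9.81 at 48 hpf, against 10.37, 10.73, 10.66 and 10.53 at 24 hpf (-0.82, adjusted p = 0.000111). Again no array of 48 hpf reached an array of 24 hpf. prpf6, a bridge within the U4/U6.U5 particle, fell by 0.40 in mutants and 0.57 in wild types on the log2 scale, and prpf4, which had also been lower in mutants than in wild types at 24 hpf, fell by 0.62 in mutants and 0.76 in wild types.

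The kinase gene prpf4bb, whose mammalian relative phosphorylates Prp proteins, fell by 0.67 in mutants (adjusted p = 0.00227) and 0.84 in wild types (adjusted p = 0.000237) on the log2 scale. Its level in wild types at 48 hpf was 6.74, 6.64, 6.10 and 6.69, so that replicate 3 lay below the others. prpf31 and prpf39, whose yeast relatives serve the U4/U6.U5 particle and U1, had -0.14 (adjusted p = 0.422) and -0.28 (adjusted p = 0.167) in mutants and were called lower in wild types, at -0.45 and -0.70.

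Among the U2 factors, sf3b5, a small subunit of the SF3b complex that holds the branch site, had the largest decrease in wild types with all arrays. It read 9.0, 8.80, 8.69 and 8.45 at 48 hpf in mutants, against 9.32, 9.55, 9.33 and 9.14 at 24 hpf (-0.60, adjusted p = 0.00839). In wild types it read 9.06, 9.11, 8.84 and 9.01 at 48 hpf, against 10.28, 9.58, 9.59 and 9.64 at 24 hpf (-0.77, adjusted p = 0.00102). The times did not overlap, and without the array at 10.28 the change in wild types was -0.60 (adjusted p = 0.00197), while sf3b3 had -0.63. sf3a2, sf3a3 and sf3b3 also fell in both genotypes, by 0.53 to 0.65 in mutants and 0.47 to 0.64 in wild types on the log2 scale. The other probe set of sf3a2 had -0.3 in mutants and -0.14 in wild types, called in neither. sf3b1, the scaffold of the branch site complex, was called in mutants only by its brightest probe set (-0.34, adjusted p = 0.037). Its other probe set was called lower in both genotypes, at -0.34 in mutants and -0.36 in wild types. u2af1, which reads the end of the intron, was called in neither genotype.

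lsm8, which sets the nuclear Lsm ring of U6 apart from the cytoplasmic ring, was the Lsm gene with the largest decrease in wild types. It read 9.02, 8.92, 8.80 and 8.68 at 48 hpf in mutants, against 9.48, 9.58, 9.13 and 9.05 at 24 hpf (-0.46, adjusted p = 0.066). In wild types it read 8.69, 8.68, 8.64 and 8.74 at 48 hpf, against 10.19, 9.27, 9.25 and 9.35 at 24 hpf (-0.82, adjusted p = 0.00169). The array at 10.19 was again wild type replicate 1, and without it the change was -0.60 (adjusted p = 0.00177). The cytoplasmic lsm1 had -0.11 in mutants and 0.06 in wild types, with no call. The other calls among Lsm genes were lsm7 (-0.48) and lsm14ab (-0.45) in mutants and lsm14aa (-0.43) in wild types. The lsm14 calls were each lost in 4 alternatives (adjusted p up to 0.0885 for lsm14ab and 0.199 for lsm14aa), among them leaving out mutant replicates 3 or 4 of 24 hpf or 4 of 48 hpf for lsm14ab, and wild type replicates 2 of 24 hpf or 3 of 48 hpf for lsm14aa. The genotype in which lsm14aa was called depends on the probe set. Of its 2 other probe sets, 1 was called lower in mutants (-0.41) and none in wild types (-0.16 to 0.09). Its brightest probe set is dim, with a mean level of 5.23.

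The hnRNP genes fell in smaller part. hnrnpul1 had the strongest call in mutants at -0.83 ± 0.10 (adjusted p = 2.28e-05, 1.78-fold lower), against -0.47 (adjusted p = 0.0021) in wild types. hnrnpk, hnrnpl2, hnrnpa1b, hnrnpa0l, hnrnpabb, hnrnph1l and hnrnpub also fell in both genotypes, by 0.38 to 0.58 in mutants and 0.30 to 0.70 in wild types on the log2 scale. Apart from hnrnpul1, the hnRNP genes lower in mutants than in wild types were not called for time by their brightest probe sets. These were hnrnpl (-0.27 in mutants and -0.26 in wild types), hnrnpdl (0.06 and -0.12), hnrnpr (-0.25 and -0.07) and hnrnpa0a (-0.33 and -0.31), in the same order of genotypes. Of the 2 other probe sets of hnrnpa0a, with -0.62 and -0.06 in mutants, 1 was called lower there. hnrnpd was called lower in mutants by its brightest probe set (-0.32, adjusted p = 0.0184), while its dimmer probe set rose by 0.98 in mutants (adjusted p = 0.00107) and by 0.53 in wild types (adjusted p = 0.0394), so its direction depends on the probe set.

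By brightest probe set, the Ptbp genes split. ptbp1a read 8.78, 8.79, 8.64 and 8.23 at 48 hpf in mutants, against 9.24, 9.37, 9.47 and 9.50 at 24 hpf (-0.79, adjusted p = 0.000239), and 8.41, 8.42, 8.39 and 8.17 at 48 hpf in wild types, against 8.99, 8.81, 8.81 and 9.20 at 24 hpf (-0.60, adjusted p = 0.00146). ptbp1b read 8.20, 7.91, 7.80 and 7.71 at 48 hpf in mutants, against 8.71, 8.92, 8.86 and 8.68 at 24 hpf (-0.89, adjusted p = 0.000143), and 8.13, 7.77, 7.58 and 8.12 at 48 hpf in wild types, against 8.73, 8.73, 8.42 and 8.58 at 24 hpf (-0.72, adjusted p = 0.000617). Neither gene had overlapping times in either genotype. The values of ptbp1a are those of its brightest probe set. Its 2 other probe sets changed by -0.6 to -0.13 in mutants and by -0.53 to -0.12 in wild types. Only 1 of them was called lower in each genotype.

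ptbp2b, which carries the name of the neuronal member, had no call. It read 5.78, 5.97, 6.29 and 6.25 at 48 hpf in mutants, against 6.28, 6.15, 6.71 and 6.39 at 24 hpf (-0.31, adjusted p = 0.198). In wild types it read 6.73, 6.45, 6.31 and 6.42 at 48 hpf, against 5.86, 6.44, 6.36 and 6.69 at 24 hpf (0.14, adjusted p = 0.584). Its times overlapped in both genotypes. ptbp3 had 0.05 in mutants and 0.22 in wild types, with no call. The mean levels, 6.32 for ptbp2b and 6.64 for ptbp3, lie below the highest foreign reading, 7.22 for pd2EGFP. They lie above the other foreign sequences, which read at most 5.89. A dim probe set understates a change.

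**Figure D4:**
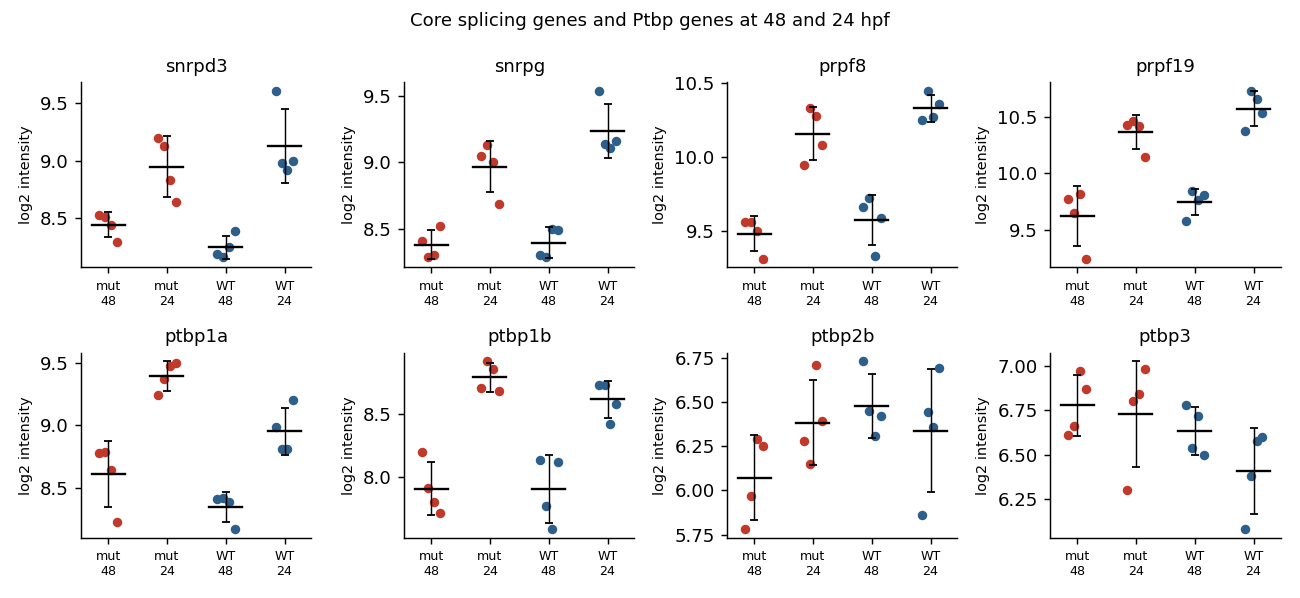
Log2 intensity of 4 core splicing genes and 4 Ptbp genes at 48 and 24 hpf in mutants (mut) and wild types (WT), 1 point per array, with bars for the mean and SD of 4 arrays. The arrays at 48 hpf sit below those at 24 hpf in both genotypes for snrpd3, snrpg, prpf8, prpf19, ptbp1a and ptbp1b, while ptbp2b and ptbp3 overlap between the times.

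These Ptbp genes were set side by side after their values were seen, and no p-value is given for the differences between them. Markers of differentiated neurons moved with time beside these values: of 9 measured, 8 rose in mutants and 9 in wild types, with log2 sums of 10.99 to 11.80 at 48 hpf and 10.13 to 10.60 at 24 hpf in mutants, and of 11.16 to 11.61 at 48 hpf and 9.90 to 10.26 at 24 hpf in wild types. The means of these markers lay above the median of the foreign sequences, except for 1 in mutants at 24 hpf. All 11 measured muscle markers rose in each genotype, with log2 sums of 15.79 to 16.40 at 48 hpf and 13.04 to 14.56 at 24 hpf in mutants, and of 16.41 to 16.53 and 13.43 to 14.43 in wild types. Markers of dividing cells fell in 6 of 10 cases in mutants and 8 of 10 in wild types. Of 8 neural progenitor markers, 1 rose and 2 fell in mutants, and 2 rose and 2 fell in wild types. Their log2 sums in mutants were 10.95 to 11.31 at 48 hpf and 11.59 to 11.69 at 24 hpf. In wild types they were 11.61 to 12.08 and 11.61 to 11.95. Red blood cell markers rose in 4 of 7 cases in mutants and 5 in wild types, and lens markers in 2 and 3 of 3. Of 5 epidermis markers, 1 rose and 2 fell in each genotype. The part of these shifts in the splicing results was not tested.

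Zebrafish kept many duplicated splicing genes, and 11 pairs named a and b were measured on both copies. Whether the copies differ in their response was tested for time and for genotype with 22 exact two-sided permutation tests, which can go no lower than p = 0.000408, and Benjamini-Hochberg over the 22. The tests were added after the values were seen, and 5 passed.

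For time, the srsf1 pair differed most. srsf1a, a copy of the SR protein SRSF1, a founding splicing activator, read 9.50, 9.78, 9.59 and 9.65 at 48 hpf in mutants, against 9.99, 10.47, 9.96 and 9.76 at 24 hpf, and 9.82, 9.98, 9.29 and 9.49 at 48 hpf in wild types, against 10.32, 10.41, 10.40 and 10.32 at 24 hpf. srsf1b read 7.97, 8.04, 8.11 and 8.29 at 48 hpf in mutants, against 7.85, 8.53, 7.65 and 7.46 at 24 hpf, and 7.46, 7.95, 7.77 and 7.78 at 48 hpf in wild types, against 8.32, 7.46, 7.58 and 7.59 at 24 hpf. In wild types all arrays of srsf1a at 48 hpf lay below those at 24 hpf (adjusted p = 0.00153), in mutants the times just overlapped (adjusted p = 0.0533), and those of srsf1b overlapped in both. The change of srsf1a minus that of srsf1b was -0.64 in mutants and -0.72 in wild types, together -0.68 (exact permutation, adjusted p = 0.00896), and -0.79 without wild type replicate 1 of 24 hpf (adjusted p = 0.00895).

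The prpf4b kinase pair went the other way round: prpf4bb fell in both genotypes, and prpf4ba had -0.10 in mutants (adjusted p = 0.514) and -0.38 in wild types (adjusted p = 0.00658). The change of prpf4ba minus that of prpf4bb was 0.57 in mutants and 0.47 in wild types, together 0.52 (exact permutation, adjusted p = 0.00895). Both copies are dim, with mean levels of 7.04 for prpf4ba and 6.94 for prpf4bb, below the highest foreign sequence at 7.22. In the srsf2 pair, srsf2a fell by 0.56 in mutants and 0.58 in wild types on the log2 scale, srsf2b had -0.25 and -0.14 with no call, and the difference was -0.38 (exact permutation, adjusted p = 0.0305).

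For genotype, the hnrnpu pair differed by 0.40 (exact permutation, adjusted p = 0.00895). hnrnpua had changes of 0.17 at 24 hpf and 0.22 at 48 hpf, and hnrnpub of -0.22 and -0.19, none called by limma. The difference ran from 0.27 to 0.44 over their probe sets. The mean level of hnrnpua was 6.32, within the range of the foreign sequences, so its changes may be understated. The hnrnpa0 pair differed by -0.29 (exact permutation, adjusted p = 0.00895), but over 12 combinations of probe sets the difference ran from -0.72 to 0.71. The other 17 tests had an adjusted p of 0.05 or more, which does not show that those copies respond alike.

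**Figure D5:**
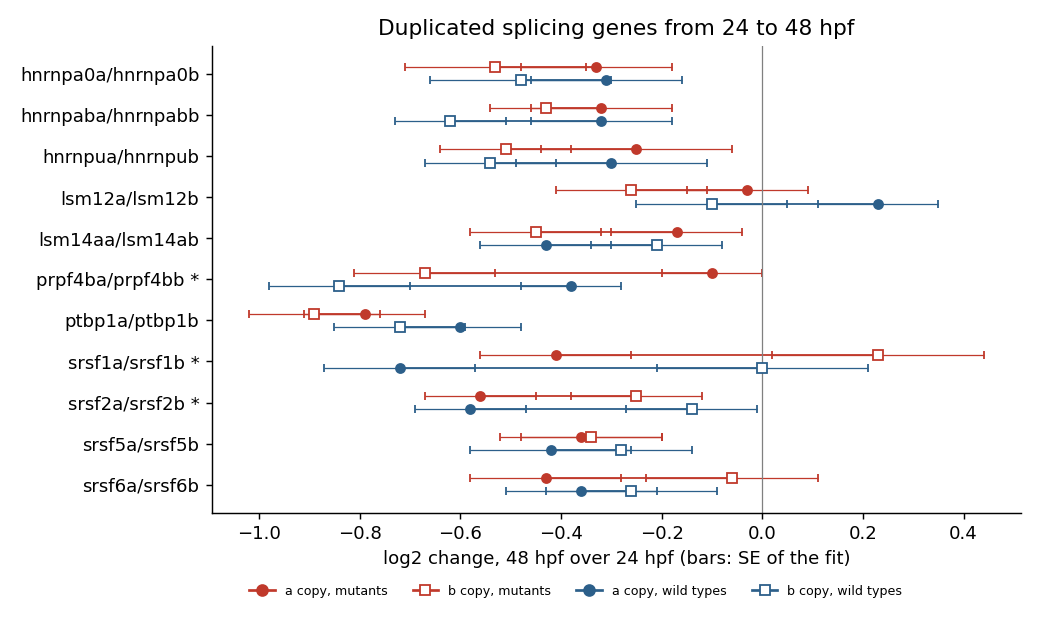
Log2 change, 48 over 24 hpf, of copy a (filled circles) and copy b (open squares) of 11 duplicated splicing genes, in mutants and wild types, with bars for the SE of the fit and an asterisk where the copies differed at an adjusted p under 0.05. The prpf4b, srsf1 and srsf2 pairs carry the asterisk, and in each the same copy lies lower in both genotypes.

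Other genes of splicing, listed apart from the members, were also called lower with time more often than all genes. Of 110 measured, 49 fell and 3 rose from 24 to 48 hpf in mutants (44.5% lower, median -0.32), and 53 fell and 1 rose in wild types (48.2% lower, median -0.34). The shares of all genes called lower were 15.4% in mutants and 21.7% in wild types, and the difference from the members was not tested. snu13b, a U4 snRNA-binding protein shared with nucleolar RNPs, fell by 1.20 in mutants and 1.36 in wild types on the log2 scale. celf1, an RNA-binding regulator of exon choice, fell by 0.86 and 1.22, and eftud2, the GTPase partner of Prp8, by 0.65 and 0.93, in the same order of genotypes. rbfox1, a regulator of exons in neurons and muscle, was the gene called higher in both, by 1.59 in mutants (adjusted p = 1.34e-05) and 1.58 in wild types (adjusted p = 7.94e-06).

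By genotype, 4 of these other genes fell in mutants at 24 hpf (3.64%, against 5.08% of all genes). None rose by limma, against 3.61%, where 6 were higher at an unadjusted p under 0.05, against 955 of all 8793 genes. At 48 hpf 7 fell (6.36%, against 8.18%) and 3 rose (2.73%, against 9.66%). The shares called lower were thus somewhat below those of all genes, and the shares called higher further below. prmt5, the enzyme that methylates Sm proteins before the ring is built, fell by 0.60 at 24 hpf (adjusted p = 0.00152) and by 0.62 at 48 hpf (adjusted p = 0.000466) on the log2 scale. gemin4, part of the SMN complex that loads the ring, fell by 0.60 at 24 hpf (adjusted p = 0.00717), and gemin5, which recognises the snRNAs, was higher in mutants at 48 hpf by 0.33. rbm25a, a U1-associated factor, showed the largest increase, 0.73 at 48 hpf (adjusted p = 0.000294).

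Sets of other housekeeping genes give a scale. Of 64 ribosome biogenesis genes, 30 (46.9%) fell in mutants at 24 hpf and 23 (35.9%) at 48 hpf, with medians of -0.52 and -0.37. Of the 87 splicing members 5 and 8 fell, and of all genes 5.08% and 8.18%. From 24 to 48 hpf 56 of the 64 fell in mutants (87.5%) and 58 in wild types (90.6%). Of all genes 15.4% fell with time in mutants and 21.7% in wild types. Of 42 proteasome genes 0 fell with time in mutants by limma, where 3 had an unadjusted p under 0.05, against 3543 of all 8793 genes. In wild types 28 fell (66.7%). At 48 hpf 12 were higher in mutants than in wild types (28.6%, against 9.66% of all genes). Among the splicing members the counts for time were close in the genotypes, 47 in mutants (54%) and 50 in wild types (57.5%). Of 73 ribosomal protein genes, 17 fell in mutants (23.3%) and 11 in wild types (15.1%) with time. Of 51 translation initiation factor genes, 19 fell in mutants (37.3%) and 26 in wild types (51%). The differences between the sets were not tested.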

How the data were processed

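RNA of 16 pools was measured on Affymetrix zebrafish arrays. The authors deposited 1 normalized, linear intensity for each probe set and array. The submitters' processing notes name GCOS, RMA and affy, with no version or setting. The tests had been laid out for log2 values, so log2 was taken here with no pseudocount. Of 15617 probe sets, 115 manufacturer controls were left out and no dim probe set was removed. By the platform annotation 10795 of those tested carried 1 symbol, 135 several and 4572 none. All 87 members matched the RefSeq table of assembly GRCz12tu by gene identifier, which was used for names and neighbouring genes only. Promoter and protein sequences were not analysed here. 18 members had more than 1 probe set, and the brightest was used.

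limma 3.58.1 in R 4.3.3 fitted a mean for each of 4 groups (12 residual degrees of freedom, prior 4.97), two-sided, with Benjamini-Hochberg adjustment over 15502 probe sets and a threshold of 0.05. The script was tested on simulated data. The labels call the pools biological replicates; their number limits the precision. Named genes are rad21a, members called between genotypes or in the interaction, and the 8 largest falls in wild types with time. The Sm genes, the a and b duplicates, prpf38a and snrpa complete these 44 genes. Outlying arrays were looked for in these 44 only. Other genes, among them ptbp2b and ptbp3, were named to fill out a role, with their values known. The members and lists were chosen with earlier results of these data known. Alternatives covered scaling, an added 16, dim filters, array weights, a trended and robust prior and groups fitted alone. They also covered a replicate block, probe set means and each array left out. Added after the data were seen were the leaving out of 3 doubted arrays and the duplicate tests. Exact tests between Ptbp genes, picked for their difference, were run but are not used.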

Additional observations from a re-analysis of the deposited data

Results flagged for a closer look

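Single arrays far from the other 3 of their group were looked for in the 44 named genes, which gave 176 groups of 4, and 15 were found; chance alone gives about 1 in 20 groups. Wild type replicate 1 of 24 hpf held 8 of the 15. It was high for snrpd3 (9.61), snrpg (9.54), snrpd1 (11.02), lsm8 (10.19), sf3b5 (10.28) and srsf1b (8.32), and low for hnrnpr (7.15) and srsf6a (9.68). Without that array the changes with time in wild types were -0.72 for snrpd3, -0.75 for snrpg, -0.49 for snrpd1, -0.60 for lsm8, -0.60 for sf3b5 and 0.20 for srsf1b. In mutants at 24 hpf replicate 4 was low for hnrnpl (8.95) and prpf19 (10.14), and replicate 2 was low for srsf5a (9.73). In wild types at 24 hpf replicate 2 was low for srsf6b (8.82). At 48 hpf mutant replicate 3 was high for lsm14aa (5.26), a dim probe set, wild type replicate 3 was low for prpf4bb (6.10) and wild type replicate 4 was low for ptbp1a (8.17). What sets these arrays apart was not tested.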

How the results depend on the processing

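The falls with time held best. Of the 47 members called in mutants 33 were called under all 27 alternatives, and of the 50 in wild types 35, with 39 to 51 called in mutants and 43 to 55 in wild types when 1 array was left out. Cyclic loess gave the lowest counts, 33 in mutants and 37 in wild types. These counts take calls in both directions. In wild types lsm12a was called higher under cyclic loess and under array weights (limma, adjusted p down to 0.0201). The genotype calls at 24 hpf were fragile: 0 of 6 were called under all alternatives, and leaving out 1 array gave 1 (without mutant replicate 4) to 8 (without wild type replicate 1) calls. The count was 3 without wild type replicate 2, 2 without replicate 3 and 3 without replicate 4, all wild types of 24 hpf. It was 19 with array weights (17 lower) and 10 with 3 doubted arrays left out (8 lower), namely wild type replicates 1 of 24 hpf and 3 of 48 hpf and mutant replicate 4 of 48 hpf. The share of all genes called was not counted under the alternatives. Whether the members stayed near that share there is therefore not known. At 48 hpf hnrnpl, hnrnpul1, prpf38b and srsf3b were called under all 27, and leaving out 1 array gave 5 (without wild type replicate 2 of 48 hpf) to 9 calls. The count for the interaction was 0 under the 26 alternatives run. Among the 44 named genes, no change that was called changed direction under any alternative. Uncalled changes near 0 did, such as srsf1b at 24 hpf (-0.09 to 0.33). The cause of these shifts was not tested.

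Without the 3 doubted arrays 4 more duplicate tests passed, among them srsf1 for genotype (-0.55, adjusted p = 0.0126, exact permutation); these arrays were chosen after the data were seen. The labels do not say that replicate numbers pair the samples. At 24 hpf the deviations of same-numbered arrays correlated at 0.426, -0.307, 0.305 and 0.392, and 3 of the 4 matched their own number best, a hint of pairing that replicate 2 did not share. At 48 hpf the correlations ran from -0.155 to 0.0457. With the number as a replicate block, 9 members were called at 24 hpf and 10 at 48 hpf, and 51 with time in mutants and 52 in wild types; at 24 hpf ptbp1a lost its call, and hnrnpa0a, sf3b5 and srsf2a gained one. Low levels limit the 16 members with a mean below 7.22, among them ptbp2b, ptbp3, hnrnpua, prpf4ba, prpf4bb, snrpd2 and several Lsm genes. That bound is the highest reading of pd2EGFP. The other foreign sequences read at most 5.89, and 8 members had a mean below 6.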
